A study of Mus musculus with 9 samples.

Results

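The 6 arrays compared here hold RNA of antigen-stimulated mouse CD8+ T cells from mice given agonist anti-CD27 alone (3 mice) or blockade of PD-1 and its ligand PD-L1 alone (3 mice). They were chosen by their titles from the 9 arrays of the study. The cells were Thy1.1+ CD8+ T cells of pmel1 mice, whose transgenic T cell receptor recognises a peptide of the melanocyte protein gp100. They had been transferred into naive congenic mice, which keep their own lymphocytes, and each recipient received 100 µg hgp100 peptide intravenously. Anti-CD27 mice received 200 µg of the agonist antibody AT124, and anti-PD-1/L1 mice received 100 µg anti-PD-1 (RMP1-14) with 100 µg anti-PD-L1 (10F.9G2). Isotype control antibodies (200 µg) brought both groups to 400 µg antibody in total. The 3 combination mice received AT124 with both blocking antibodies, and their levels are given beside the others without a test. Peptide was thus given to every group, and peptide with isotype control alone was not analysed here. Transferred cells were sorted from the spleens of individual mice on day 4 after peptide, so 1 array stands for 1 mouse.

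T cells carry CD27, which belongs to the TNF receptor family and provides costimulation. When its ligand CD70 or an agonist antibody engages it, TRAF adaptor proteins carry the signal to NF-kB, which supports survival and expansion of the T cell. PD-1 is an inhibitory receptor that activated T cells display, and its engagement by PD-L1 recruits phosphatases that dampen signalling from the T cell receptor and from CD28. An agonist to CD27 thus adds a signal, whereas antibodies to PD-1 and PD-L1 remove a brake. Their direct comparison asks how the programmes of the T cells differ when either is given alone.

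Values are log2 expression levels, and a difference is the anti-CD27 mean minus the anti-PD-1/L1 mean, so that a positive difference is higher in anti-CD27. Adjusted p-values come from limma with Benjamini-Hochberg adjustment over 30744 genes, and genes with an adjusted p below 0.05 were called, with no minimum fold. Of the genes tested, 5265 (17.1%) were called higher and 16485 (53.6%) lower in anti-CD27, and 70.7% were called in either direction. Without overlap of the arrays, 17.4% were higher and 55% lower. After quantile normalisation 23.3% were called higher and 26.9% lower, after cyclic loess 25.5% and 23.5%. A call alone therefore says little about a gene here. Of the lower calls, 9058 were of genes that did not exceed the mean of the background control probe sets in either group.

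The arrays of the groups differed in their control probe sets. The background control probe sets averaged 3.27 ± 0.06 (SD, n = 3) in anti-CD27 and 4.06 ± 0.08 (SD, n = 3) in anti-PD-1/L1, and the difference was -1.36 among those with 16 to 25 G or C bases against -0.12 among those with 3 to 9. Bacterial and phage controls stood at 8.60 and 9.75, and the positive controls, whose targets are not given in the sources used here, went the other way, at 6.70 and 5.75. The 5222 negative controls also went the other way but by less, at 2.92 and 2.77. For each of these measures the arrays of the groups did not overlap (exact permutation test over arrays, two-sided, p = 0.1, the smallest that 3 against 3 allows). With genes split by level into 10 bins of equal size, the median difference lay between -0.22 and -0.47 in the 7 lower bins and was 0.03, 0.33 and 0.28 in the upper ones. It also followed the genomic span of the gene: among protein-coding genes above the 95th percentile of the negative controls, in 10 bins of 480 or 481 genes and after removal of the trend with level, it ran from -0.52 in the 10% with the shortest spans to 1.09 in the 10% with the longest. The combination arrays were near anti-CD27 in the background (3.25), bacterial and phage (8.60) and positive controls (6.81), and near anti-PD-1/L1 in the negative controls (2.78). Treatment and these array differences cannot be told apart, and their part in the results below was not tested.

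**Figure D1:**
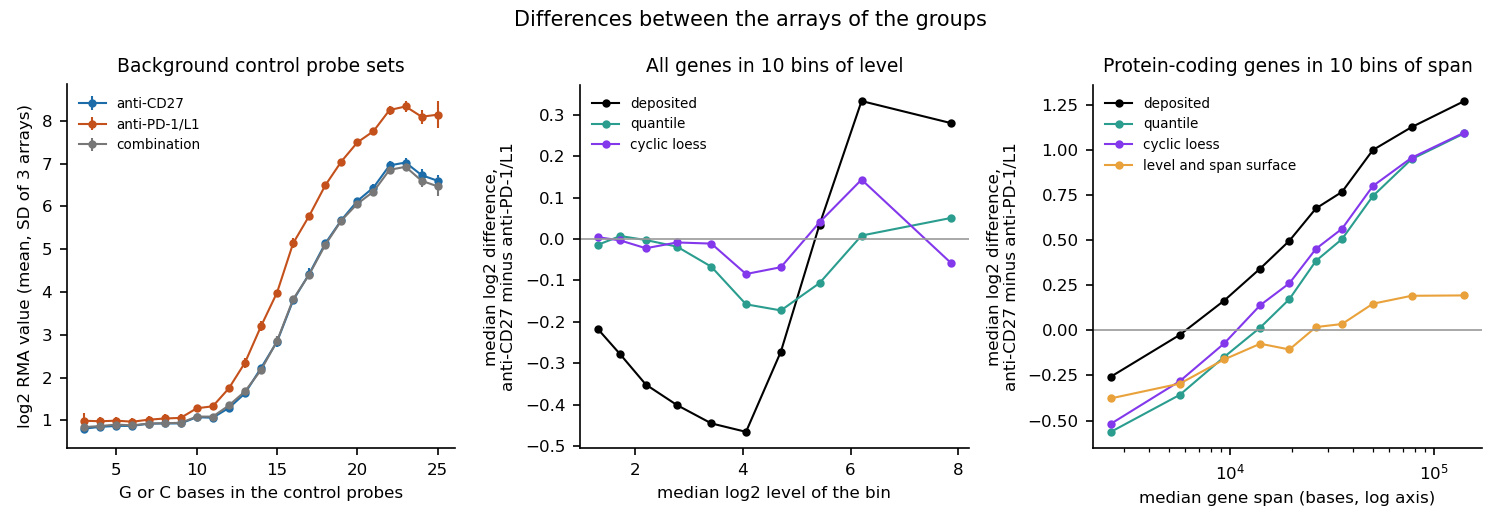
Left, mean log2 value (SD of 3 arrays) of background control probe sets against the number of G or C bases in their probes; middle, median log2 difference (anti-CD27 minus anti-PD-1/L1) of genes in 10 bins of level; right, the same for protein-coding genes above the 95th percentile of the negative controls in 10 bins of genomic span on a log axis. The anti-PD-1/L1 background rises above the others from about the middle of the G and C range, and the difference rises with span on the deposited, quantile and cyclic loess values and much less after the surface over level and span is removed.

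Weight was therefore given to differences that were called in the same direction on the deposited values, after quantile normalisation and after cyclic loess, without overlap of the 3 and 3 arrays, and with 1 group above background. With background taken as the 95th percentile of the background controls, which their G- and C-rich members set, 1412 genes (4.59%) were kept higher in anti-CD27 and 735 (2.39%) kept lower. With the mean of the controls in its place, a looser rule added after the values were seen, 4126 genes (13.4%) were kept higher and 4880 (15.9%) kept lower. "Kept" below means kept by the looser rule, unless the strict one is named. Another scaling, also added later, removed a smooth surface over level and gene span from each array, and its differences are given for part of the genes and lists. A difference printed without it may shrink on it. Cd8b1, for example, went from 1.84 on the deposited values to 0.70, Dgka from 2.26 to 1.15 and Btla from 1.10 to 0.48. On this scaling 22.6% of the genes were called higher and 26.1% lower. Of the 12132 protein-coding genes above the mean background, which most lists draw from, 35.1% were called higher and 39.7% lower on the deposited values, and 28.4% were kept higher and 25% kept lower.

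The T cell markers were present in both groups but not at equal levels. Cd8a, the CD8 alpha chain, was at 10.75, 10.78 and 10.77 in anti-CD27 and at 9.59, 9.17 and 8.86 in anti-PD-1/L1. Every anti-PD-1/L1 value lay below every anti-CD27 value, with a difference of 1.56 ± 0.15 (SE, adjusted p = 4.21e-05). Cd8b1 (1.84), Cd3e (2.17) and Thy1 (1.03) also stood higher in anti-CD27, whereas Cd3d, another CD3 chain, differed by -0.33 on the deposited values and by -0.04 after quantile normalisation. Of 10 measured genes of the T cell receptor complex and T cell identity, 7 were called and kept higher and 1 was called lower, and 6 were higher and 4 lower with the surface over level and span removed. In such bulk samples, fewer cells of a type and less RNA per cell cannot be told apart.

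Markers of other cells were mostly near the background of their own arrays. The 7 measured B cell markers had mean levels of 3.54 to 3.58 on the anti-CD27 arrays and 3.93 to 4.00 on the anti-PD-1/L1 arrays, and the 8 neutrophil markers 2.72 to 2.78 and 3.07 to 3.21. Of the 7 monocyte and macrophage markers, Ctss (cathepsin S, 9.12 and 7.90) and Cd68 (5.55 and 5.13) were called higher in anti-CD27. Another 4 were called lower. The call of Cd68 was lost after quantile normalisation (0.34, adjusted p = 0.0562). It was also lost, at an adjusted p of up to 0.0546, when single arrays of either group were left out. Ctss differed by 0.17 (adjusted p = 0.21) on the values with the surface over level and span removed.

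Among cytotoxic genes, 4 granzymes were higher in anti-PD-1/L1 on each scaling. Granzymes are serine proteases that killer lymphocytes release with perforin into target cells. Gzmb (granzyme B) stood at 3.65, 3.70 and 4.44 in the anti-CD27 mice, at 6.49, 5.40 and 7.05 in the anti-PD-1/L1 mice and at 8.44, 8.57 and 9.02 in the combination mice. The groups did not overlap, the anti-PD-1/L1 mice spread over the widest range, and the combination mice stood highest. The difference was -2.38 ± 0.39 (SE, adjusted p = 0.000689), or 5.22-fold higher in anti-PD-1/L1, and it remained at -2.52, -2.60 and -2.50 after quantile normalisation, cyclic loess and the surface over level and span.

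Gzma (granzyme A) stood at 4.73, 4.87 and 4.89 in anti-CD27 and at 6.76, 6.17 and 7.30 in anti-PD-1/L1. The anti-CD27 mice were close together and all below the others, and the difference was -1.91 ± 0.24 (SE, adjusted p = 0.000137). Gzmk (granzyme K) differed by -1.48 ± 0.32 (SE, adjusted p = 0.00302), with 3.59, 3.89 and 4.39 against 5.40, 5.05 and 5.86. Gzmm (granzyme M), named after its values were seen, was at 3.75 against 4.98 (adjusted p = 0.00118). These 4 granzymes were the members of the cytotoxic list that were kept lower in anti-CD27. The list had 18 measured members, 14 of them above the background mean. The share kept lower was thus near the 25% of protein-coding genes above background. By their mean over the 9 arrays, Gzmb and Gzma belong to bin 9 of the 10 bins of level, in which the median difference of all genes was 0.33, in the opposite direction. That mean includes the combination arrays, on which Gzmb stood highest, so its bin rests in part on mice outside the comparison.

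The other cytotoxic genes were mixed. Ifng, the cytokine interferon gamma, was higher in anti-CD27, at 6.52, 6.69 and 6.36 against 5.85, 4.63 and 5.24, with a difference of 1.28 ± 0.28 (SE, adjusted p = 0.00335). It was kept, and the combination mice averaged 6.74. Prf1 (perforin), the pore-forming partner of the granzymes, differed by 0.33 on the deposited values (adjusted p = 0.011) and by 0.01 after quantile normalisation (adjusted p = 0.939). In all, 6 of 18 measured cytotoxic genes were called higher and 9 lower, beside 17.1% and 53.6% of all genes. The median difference was -0.23 beside -0.26 over all genes. The 5 lower ones besides the 4 granzymes, named after their values were seen, were the granzymes Gzmc, Gzmf and Gzmg, the death ligand Fasl and the serine protease inhibitor Serpinb6b (-0.32), of which only Serpinb6b was also called lower on the other 3 scalings. The calls of Serpinb6b and Fasl on the deposited values were lost, at adjusted p-values of up to 0.0910 and 0.0959, when single arrays of either group were left out. The list had 4 higher and 6 lower after quantile normalisation and 3 and 8 with level and span removed.

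A pair of receptor chains shared with natural killer (NK) cells was also higher in anti-PD-1/L1, whereas receptors of this kind gave no common direction. Klrc1 (NKG2A) and Klrd1 (CD94) encode the chains of an inhibitory receptor for the MHC molecule Qa-1. Klrc1 stood at 6.10, 6.27 and 6.37 in anti-CD27 and at 7.70, 7.09 and 7.87 in anti-PD-1/L1, a difference of -1.31 ± 0.18 (SE, adjusted p = 0.000245). Klrd1 stood at 7.70, 7.86 and 7.96 against 8.61, 8.52 and 8.71, a difference of -0.78 ± 0.09 (SE, adjusted p = 0.000104), and was kept by the strict rule as well. Neither gene overlapped between the groups. In the combination they averaged 8.81 and 8.63. Klrg1, a receptor of terminal effector cells, was at 3.29 and 4.07, and its difference of -0.77 shrank to -0.36 (adjusted p = 0.059) once the surface over level and span was removed. These were the 3 kept lower of 13 NK-type receptors, 10 of which were called lower, and 6 of the 13 did not exceed the background mean. The share kept lower was no larger than the 25% of protein-coding genes above background, and 3 were called higher and 3 lower after quantile normalisation and again with level and span removed.

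Klrb1f (NKR-P1F) went the other way, at 5.69 in anti-CD27 against 3.67 in anti-PD-1/L1. Its anti-PD-1/L1 level was under the background mean of those arrays, so the deposited difference was at least 1.62 with that mean taken as a floor. Later bounds of this kind are also of the deposited values, and a difference can be smaller on other scalings. Of 5 measured NK cell markers 4 were called lower and none was kept, and their summed level was 5.19 to 5.27 in anti-CD27 and 5.40 to 5.54 in anti-PD-1/L1 on the log2 scale. Ncr1 (NKp46), a defining marker of NK cells, was at 2.12 and 2.37, under the mean of the background controls in each group, and the sign of its difference turned on the other scalings.

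Ctla2a and Ctla2b, related genes for inhibitors of cathepsin-type proteases that were first found in activated T cells, had the largest protein-coding differences in this direction beside Gzmb. Ctla2a was at 5.83, 5.97 and 6.37 in anti-CD27, at 8.46, 8.19 and 8.34 in anti-PD-1/L1 and at 8.31, 8.26 and 8.25 in the combination. The blockade and combination mice thus lay close together, and all of them lay above the anti-CD27 mice. The difference was -2.27 ± 0.13 (SE, adjusted p = 1.92e-06), and the gene was kept by the strict rule. Ctla2b was at 4.41, 4.90 and 5.37 against 7.44, 7.10 and 7.56, a difference of -2.48 ± 0.22 (SE, adjusted p = 2.3e-05). Their sequences are alike, so probes may not separate them fully, and they are better read as a pair.

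Cxcr6, a chemokine receptor that directs T cells to tissues rich in its ligand CXCL16, showed another pattern. It stood at 5.04, 4.74 and 4.50 in anti-CD27, at 7.07, 6.36 and 6.83 in anti-PD-1/L1 and at 5.26, 5.29 and 4.97 in the combination. The anti-PD-1/L1 mice were above the mice of both other groups. The difference from anti-CD27 was -1.99 ± 0.20 (SE, adjusted p = 4.12e-05), or 3.98-fold, and it was the only member kept lower of 24 chemokine receptors, integrins and adhesion genes. On the same arrays, and with the combination near anti-CD27, stood Rnase2a, a secreted ribonuclease (-1.64), Fabp3, a fatty acid binding protein (-1.43), and Bbc3, the pro-apoptotic BCL2 family member PUMA (-0.87). Bad, another pro-apoptotic member (-0.77), the cytokine feedback inhibitors Socs1 (-0.63) and Socs3 (-0.67) and the transcriptional inhibitor Id3 (-0.60) were also kept lower in anti-CD27 and were named after their values were seen. The differences of Bad, Socs1, Socs3 and Id3 were smaller than the -0.79 of the background control probe sets. Their calls were lost with a minimum of 1.5-fold (limma treat).

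**Figure D2:**
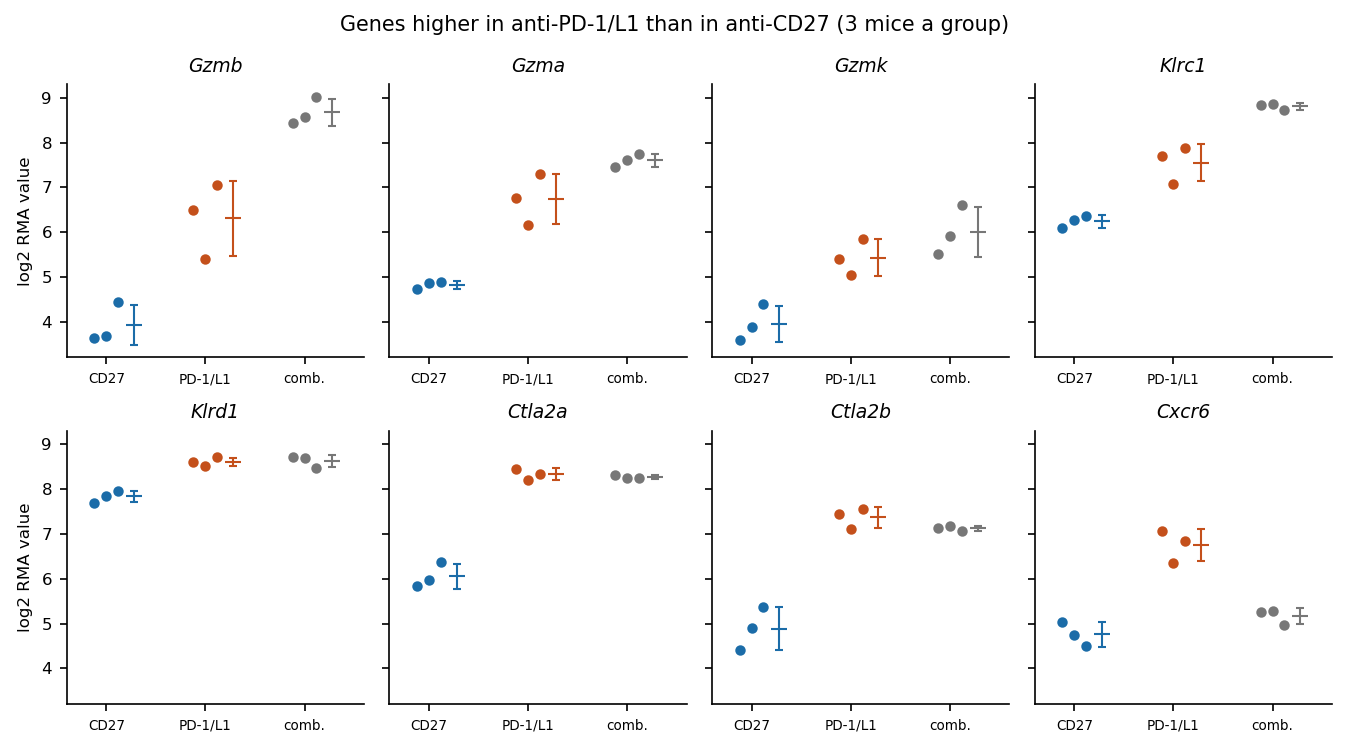
Log2 RMA values of 8 genes on the arrays of 3 anti-CD27 (CD27), 3 anti-PD-1/L1 (PD-1/L1) and 3 combination (comb.) mice, 1 point a mouse, with the mean and SD beside the points. In each panel the anti-PD-1/L1 mice lie above the anti-CD27 mice, and for Cxcr6 they also lie above the combination mice.

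Genes of T cell receptor signalling were higher in anti-CD27, with 16 of 19 measured members called higher, 14 kept and 0 lower, though 10 were higher and 4 lower with level and span removed. Cbl, a ubiquitin ligase that tags signalling proteins next to the receptor, had the largest positive difference of the genes kept by the strict rule. It stood at 9.31, 9.15 and 9.24 in anti-CD27, at 3.91, 5.72 and 4.38 in anti-PD-1/L1 and at 9.16, 9.35 and 9.39 in the combination. The anti-CD27 and combination mice overlapped, and the anti-PD-1/L1 mice lay far lower and were more scattered. The difference was 4.57 ± 0.38 (SE, adjusted p = 1.76e-05), and 3.26 on the values with the surface over level and span removed. Its rank rests on the probe set with the highest mean. With the mean over all probe sets of a gene, Cbl differed by 3.73, below the 3.97 of Actn1 in that setting.

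Rasgrp1, which activates Ras downstream of diacylglycerol, differed by 2.40, and Dgka, the kinase that consumes diacylglycerol, by 2.26. Lcp2, the adaptor SLP-76, differed by 2.20. These are positive and negative regulators of the same pathway, and both kinds stood higher. The median difference of the list was 1.55 on deposited values, 1.21 after cyclic loess and 0.27 after the surface over level and span was removed, beside -0.26, -0.01 and -0.02 over all genes. The members of the list had a median genomic span of 51011 bases, against 20391.5 for protein-coding genes above the background mean.

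Among genes that the T cell receptor induces early, 14 of 20 measured were called higher and 9 kept higher. Cd69, an early activation antigen that holds cells in lymphoid tissue, was at 8.96, 8.85 and 8.54 in anti-CD27 and at 6.51, 6.42 and 6.24 in anti-PD-1/L1, a difference of 2.39 ± 0.18 (SE, adjusted p = 1.05e-05). Nfatc1, a calcium-regulated transcription factor, differed by 2.24, the MAP kinase phosphatase Dusp1 by 2.04 and Zfp36, which destabilises cytokine mRNAs, by 1.85. Dusp1 and Zfp36 are short genes, of 2882 and 2445 bases, and their differences were 1.76 and 1.71 with level and span removed.

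The NF-kB pathway and the TNF receptor adaptors, to which CD27 signals, had 16 of 19 measured members called higher, 13 kept higher and 0 called lower, and with level and span removed 12 were higher and 4 lower. Tnfaip3 (A20), an enzyme that shuts NF-kB signalling down and is itself a target of NF-kB, stood at 9.53, 9.52 and 8.99 in anti-CD27, at 6.32, 6.38 and 6.08 in anti-PD-1/L1 and at 8.29, 8.56 and 8.03 in the combination. The groups did not overlap, and anti-CD27 alone stood highest. The difference was 3.09 ± 0.18 (SE, adjusted p = 2.05e-06). Nfkbia, the inhibitor IkB alpha, was at 9.94, 10.05 and 9.66 against 8.10, 7.78 and 7.63, a difference of 2.05 ± 0.15 (SE, adjusted p = 7.97e-06).

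The NF-kB subunits Rela and Rel differed by 2.48 and 2.38, and Traf1, an adaptor of the CD27 family of receptors, by 1.94. The list's median difference was 1.08, 0.87 after cyclic loess and 0.71 after removal of level and span, so it depended less on span than that of T cell receptor signalling. Genes for the receptor itself and its ligand gave little. The probe set that carries the name of Cd27 with 2 other names stood at 9.91 and 9.37, a difference of 0.53 ± 0.15 (SE, limma, adjusted p = 0.0120 over 65956 probe sets). Cd70 was under the background mean in both groups, at 1.47 and 1.81.

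Interferon-induced genes were higher in anti-CD27. Type I interferon acts on genes with an interferon-stimulated response element, and many of these genes restrict viruses. Of 24 measured genes of this response, 19 were called higher, 18 were kept higher, and 1 (Ifi27, -0.36) was called and kept lower. Ifit1, which binds foreign RNA, stood at 7.05, 7.26 and 6.96 in anti-CD27, at 4.45, 4.03 and 4.15 in anti-PD-1/L1 and at 6.34, 6.17 and 5.79 in the combination. The 3 groups did not overlap, and the difference was 2.88 ± 0.16 (SE, adjusted p = 1.51e-06). Stat2 was at 6.79, 6.83 and 6.67 against 4.82, 4.84 and 4.87, a difference of 1.92, and the antiviral gene Oas3 differed by 1.82. Ifih1 (MDA5), a sensor of double-stranded RNA, averaged 5.93 against 3.43, and since the lower value is under the background mean, the difference was at least 1.87.

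Genes that interferon gamma induces went the same way, with 14 of 17 measured called higher and 2 lower. Gbp7, a guanylate-binding protein of cell-autonomous defence, stood at 8.76, 8.87 and 8.85 in anti-CD27, at 5.05, 4.87 and 4.83 in anti-PD-1/L1 and at 9.01, 9.10 and 8.76 in the combination. The anti-PD-1/L1 mice were far below both other groups, with a difference of 3.91 ± 0.10 (SE, adjusted p = 3.46e-08). Gbp2 differed by 2.40, Gbp4 by 2.21 and Tapbp (tapasin), which loads peptides on MHC class I, by 1.66. Psmb8, a subunit of the immunoproteasome, was kept lower at -0.33. The list medians were 0.71 (type I) and 0.80 (interferon gamma), and 0.75 and 0.46 with level and span removed.

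The promoters of the list members, called or not, were searched for short words. The lists gather genes by function or response, so a shared word does not bear on which members stood higher here. Each promoter is the RefSeq sequence from 250 bases before to 50 bases after the transcript start on GRCm38.p6, and words were sought on both strands. The interferon word, GAAA with any 2 bases and then GAAA again, was in the promoters of 9 of 17 genes of the type I list (52.9%) and of 8 of 14 of the interferon gamma list (57.1%), against 3.86% of 18199 tested genes with a promoter. The NF-kB words, GGGAA or GGGAC followed by TTTCC, were in promoters of 2 of 17 genes of the NF-kB list (11.8%), against 0.302%. The E2F words TTTCCCGC or TTTGGCGC were in promoters of 8 of 25 genes of the DNA replication list (32%), against 2.29%. CCAAT was in promoters of 20 of 23 genes of the mitosis list (87.0%), against 41.6%. Lists without a common direction on the deposited values held these words as well. The NF-kB words were in 2 of 16 cytokine and chemokine genes (12.5%), while most other lists held none. The cytokine list had a median difference of -0.11 on the deposited values. After quantile normalisation its median was 0.10, with 7 called higher and 1 lower. CCAAT was in 14 of 14 genes of the cholesterol synthesis list and in 15 of 20 of the amino acid stress list. A match is a description of these letters and not a site of binding. The promoters of 5 genes described here show where the words lie, in capitals and on the strand of the gene, so that a word of the opposite strand appears as its reverse complement.
Ifit1, chr19:34640639-34640938, plus strand: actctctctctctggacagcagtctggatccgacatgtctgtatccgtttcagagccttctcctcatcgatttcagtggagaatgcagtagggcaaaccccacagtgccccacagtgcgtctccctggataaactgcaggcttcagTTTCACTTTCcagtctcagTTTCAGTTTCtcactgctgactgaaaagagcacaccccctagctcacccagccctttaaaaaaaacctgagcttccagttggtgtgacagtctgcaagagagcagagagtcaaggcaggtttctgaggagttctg
Stat2, chr10:128270248-128270547, plus strand: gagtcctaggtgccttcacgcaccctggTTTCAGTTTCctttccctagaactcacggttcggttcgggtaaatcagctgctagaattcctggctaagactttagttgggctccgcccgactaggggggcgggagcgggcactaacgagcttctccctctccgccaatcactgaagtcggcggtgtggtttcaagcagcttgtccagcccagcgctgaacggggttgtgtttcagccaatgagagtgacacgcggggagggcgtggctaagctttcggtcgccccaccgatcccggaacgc
Gbp7, chr3:142530086-142530385, plus strand: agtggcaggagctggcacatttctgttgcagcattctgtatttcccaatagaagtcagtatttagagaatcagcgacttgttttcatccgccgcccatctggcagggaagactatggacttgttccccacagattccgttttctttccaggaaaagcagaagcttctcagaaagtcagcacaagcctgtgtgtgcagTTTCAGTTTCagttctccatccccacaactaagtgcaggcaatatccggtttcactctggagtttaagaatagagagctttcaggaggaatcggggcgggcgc
Nfkbia, chr12:55492598-55492897, minus strand: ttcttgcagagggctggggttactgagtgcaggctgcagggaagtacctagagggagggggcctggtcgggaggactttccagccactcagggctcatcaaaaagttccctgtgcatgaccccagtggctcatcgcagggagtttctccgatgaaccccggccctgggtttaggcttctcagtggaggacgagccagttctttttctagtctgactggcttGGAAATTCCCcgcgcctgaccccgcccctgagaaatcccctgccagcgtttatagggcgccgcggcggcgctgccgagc
Mcm6, chr1:128359656-128359955, minus strand: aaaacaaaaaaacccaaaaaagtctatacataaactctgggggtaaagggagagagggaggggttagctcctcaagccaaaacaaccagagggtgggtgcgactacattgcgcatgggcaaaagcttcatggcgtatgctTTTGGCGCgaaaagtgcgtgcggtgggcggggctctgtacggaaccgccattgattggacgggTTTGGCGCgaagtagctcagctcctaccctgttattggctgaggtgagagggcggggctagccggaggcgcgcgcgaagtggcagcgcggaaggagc
In Ifit1 the interferon words start 104 and 85 bases before the transcript start, in Stat2 222 and in Gbp7 53 bases before it. The NF-kB word of Nfkbia starts 29 bases before its start. The E2F words of Mcm6 start 110 and 47 bases before its start.

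Genes of naive and memory T cells were higher in anti-CD27, with 13 of 19 measured called higher, 12 kept higher and 3 called lower. Il7r, the interleukin-7 receptor chain on which resting T cells depend, stood at 9.28, 9.41 and 9.40 in anti-CD27, at 7.04, 6.76 and 6.31 in anti-PD-1/L1 and at 9.59, 9.59 and 9.24 in the combination. The anti-CD27 and combination mice were at similar levels, and the difference from anti-PD-1/L1 was 2.66 ± 0.17 (SE, adjusted p = 4.56e-06). Lef1, a transcription factor of naive and memory precursor cells, was at 8.91, 8.79 and 8.83 against 6.14, 6.17 and 5.75, a difference of 2.82. Foxo1, which drives Il7r and homing receptors, differed by 2.85 and the actin cross-linker Actn1 by 3.97.

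Each of these 4 genes spans more bases than the median protein-coding gene, and their differences with level and span removed were 1.68 for Il7r, 1.45 for Lef1, 1.66 for Foxo1 and 2.56 for Actn1. The median of the list fell to 0.12 on that scaling from 1.00 on the deposited values, with 9 called higher and 6 lower. Not all members went one way, and Id3, kept lower as given above, belongs to the same list.

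Transcription factors of effector cells were split. Bhlhe40, which supports cytokine production, stood at 8.04, 8.51 and 7.99 in anti-CD27 and at 5.11, 4.90 and 5.36 in anti-PD-1/L1, a difference of 3.05 ± 0.17 (SE, adjusted p = 1.63e-06). With a span of only 6297 bases it differed by 2.66 on the values with level and span removed. Ikzf2 (Helios) differed by 2.29, and by 1.51 with level and span removed. Hif1a, the hypoxia-inducible factor, differed by 1.40, but by 0.31 (adjusted p = 0.0376) on that scaling, and Runx3, needed for the CD8 lineage, by 1.29, but by 0.21 (adjusted p = 0.078). Eomes, a T-box factor of effector and memory cells, was modestly higher, at 5.67, 5.93 and 6.08 against 5.21, 5.29 and 5.34 (0.61 ± 0.14, SE, adjusted p = 0.00405), and at 6.70, 7.10 and 7.18 in the 3 combination arrays. Its call was lost when array weights were fitted per group (adjusted p = 0.0502).

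Tbx21 (T-bet), the partner of Eomes, gave no call on the deposited values, at 6.72, 6.58 and 6.79 in anti-CD27 and 6.83, 6.58 and 6.68 in anti-PD-1/L1 (difference 0.00, adjusted p = 0.993). On the other scalings it was called lower in anti-CD27, with a difference of -0.41 after quantile normalisation. The combination mice stood above both, at 7.72, 7.65 and 7.73.

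The receptors that the antibodies bind gave contrasting results. Pdcd1 (PD-1) stood at 7.11, 7.15 and 7.08 in anti-CD27, at 7.33, 7.06 and 7.25 in anti-PD-1/L1 and at 7.36, 7.47 and 7.44 in the combination. The single treatments overlapped on the deposited values (-0.10 ± 0.07, SE, adjusted p = 0.249), whereas after quantile normalisation and cyclic loess the gene was called lower in anti-CD27 (-0.49 and -0.42, adjusted p = 0.000224 and 0.00188). Cd274 (PD-L1) stood at 7.03, 7.03 and 7.02 in anti-CD27 and at 5.46, 4.95 and 5.15 in anti-PD-1/L1, a difference of 1.84 ± 0.12 (SE, adjusted p = 4.91e-06) that was kept by the strict rule. The combination mice lay between, at 6.39. Pdcd1lg2 (PD-L2) was at 3.72 and 3.57, the latter under the background mean.

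Of 17 inhibitory receptors and ligands 9 were called higher, 7 kept higher and 1 called lower, and 8 were higher and 5 lower with level and span removed. Lilrb4a (gp49B), an inhibitory immunoglobulin-like receptor, was at 4.99, 5.36 and 5.36 in anti-CD27 and at 3.26, 2.79 and 3.10 in anti-PD-1/L1. All 3 of the latter were under the background mean of their arrays, so the difference was at least 1.17, and the combination mice averaged 6.81. Btla, an inhibitory partner of HVEM, differed by 1.10. On the costimulatory side, Tnfrsf1b (TNF receptor 2) differed by 1.60 and Icos by 1.07, the latter by 0.10 (adjusted p = 0.32) with level and span removed.

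Among 24 cytokine receptors and their signalling genes, 13 were called higher and 3 lower, with a median difference of 0.64, which was 0.16 with level and span removed (11 higher and 4 lower). Stat4, which relays interleukin-12, stood at 9.00, 9.00 and 9.09 in anti-CD27 and at 6.74, 6.41 and 5.91 in anti-PD-1/L1, a difference of 2.67 ± 0.17 (SE, adjusted p = 4.61e-06). Il18r1, the interleukin-18 receptor chain, differed by 2.15 and Il6st (gp130) by 2.05. By contrast, Il2ra (CD25) was at 3.05 and 3.19 and Il12rb2 at 3.28 and 3.43 in the single treatments. Both were near background and not called on the deposited values (adjusted p = 0.288 and 0.0926). Their combination levels were 5.56 and 6.67, and the sign of both small differences turned after quantile normalisation. On those values Il12rb2 was called higher in anti-CD27 (0.23, adjusted p = 0.0259). It was called lower on the deposited values when anti-CD27 replicate 3 was left out (-0.21, adjusted p = 0.0413).

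Of the 24 chemokine receptors, integrins and adhesion genes 12 were called higher in anti-CD27, 11 of them kept, and 6 lower. The median difference was 0.29, and 0.07 with level and span removed. Itgae (CD103), which binds E-cadherin on epithelia, stood at 8.58, 8.72 and 8.57 in anti-CD27, at 6.07, 5.53 and 5.46 in anti-PD-1/L1 and at 7.18, 7.16 and 6.85 in the combination, so the 3 groups did not overlap. Its difference was 2.94 ± 0.16 (SE, adjusted p = 1.46e-06). Itgal, the LFA-1 alpha chain, differed by 2.95 and Selplg, the selectin ligand PSGL-1, by 1.81. Of cytokines and chemokines 5 of 19 were called higher, among them Tgfb1 (2.14), Ccl3 (1.20) and Ccl5 (1.04), and 8 lower, but only 1 was lower on each other scaling, with 7 higher after quantile normalisation, 6 after cyclic loess and 8 with level and span removed.

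**Figure D3:**
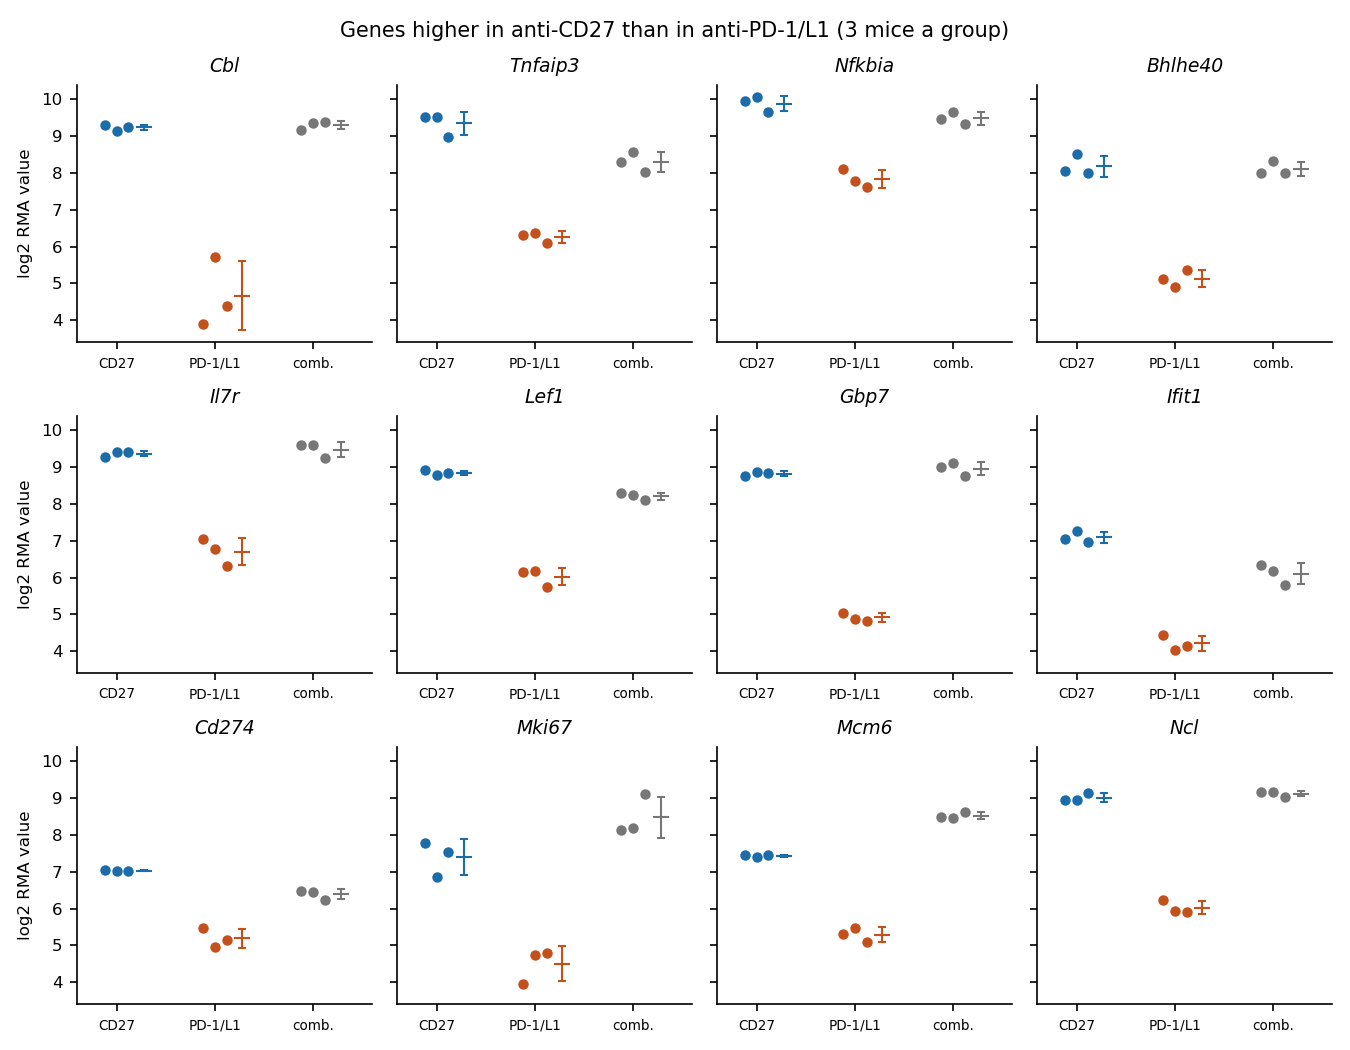
Log2 RMA values of 12 genes on the arrays of 3 anti-CD27 (CD27), 3 anti-PD-1/L1 (PD-1/L1) and 3 combination (comb.) mice, 1 point a mouse, with the mean and SD beside the points. In each panel the anti-PD-1/L1 mice lie below both other groups, and Tnfaip3, Lef1, Ifit1 and Cd274 are highest with anti-CD27 alone whereas Mki67 and Mcm6 are highest in the combination.

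Mitotic genes were called higher in anti-CD27 where they were called, and genes of DNA replication less evenly so. Mki67 (Ki-67), a protein of dividing cells, stood at 7.79, 6.86 and 7.54 in anti-CD27, at 3.95, 4.74 and 4.80 in anti-PD-1/L1 and at 8.14, 8.18 and 9.11 in the combination. The groups did not overlap, and the difference was 2.90 ± 0.35 (SE, adjusted p = 0.00011). Top2a, the topoisomerase of dividing cells, differed by 2.88. Kif11, a motor of the mitotic spindle, was at 6.87 against 3.83, under the background mean, so its difference was at least 2.80. Of 28 mitotic genes measured 15 were called higher and 0 lower, with a median difference of 0.83. With level and span removed 9 were higher and 0 lower, with a median of 0.57.

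For DNA replication 15 of 31 were called higher and 3 lower, with a median of 0.30, and 10 were kept higher. With level and span removed 11 were higher and 5 lower and the median was 0.06, so this list stood little apart from protein-coding genes above background, of which 28.4% were kept higher. Mcm6 and Mcm3, subunits of the replicative helicase, differed by 2.14 and 1.87. Mcm6 was at 7.44, 7.40 and 7.45 in anti-CD27, at 5.32, 5.47 and 5.09 in anti-PD-1/L1 and at 8.48, 8.46 and 8.62 in the combination. The order of the groups was thus the same as for Mki67. Among regulators of G1, Cdk6 was at 6.41 against 3.85, at least 2.35 higher on the deposited values and 1.63 higher with level and span removed. Rb1, which holds back E2F factors, differed by 2.48. Their list was mixed: of 16 measured G1 cyclins, CDKs and CDK inhibitors 7 were called higher and 4 lower. With level and span removed 5 were higher and 6 lower.

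The genes of ribosome synthesis followed. Of 22 genes of the Myc and ribosome biogenesis list 18 were called higher and 4 lower, and 13 and 4 with level and span removed. Ncl (nucleolin) stood at 8.95, 8.95 and 9.14 in anti-CD27 and at 6.23, 5.94 and 5.91 in anti-PD-1/L1, a difference of 2.99 ± 0.10 (SE, adjusted p = 7.89e-08), and the nucleolar helicase Ddx21 differed by 3.40. Myc itself differed by 0.67 and by 0.29 after quantile normalisation. Hsp90b1, a chaperone of the endoplasmic reticulum, differed by 2.52. Of survival genes, Pim1 differed by 2.01, the pro-apoptotic Bcl2l11 (BIM) by 1.92 and the anti-apoptotic Mcl1 by 0.83. The list was split, with 7 of 15 called higher and 4 lower, among the latter the pro-apoptotic Bad and Bbc3. With level and span removed 4 were higher and 7 lower.

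Genes of mitochondria and ribosomes were mostly higher in anti-PD-1/L1 where they were called. Of 24 genes of the respiratory chain and ATP synthase 10 were called and kept lower in anti-CD27 and 2 (Sdha and Ndufs1) higher. The share called lower was near the 39.7% of protein-coding genes above background, of which 25% were kept lower. The lower calls were 17 after quantile normalisation, 19 after cyclic loess and 20 with level and span removed. Of the 12132 protein-coding genes above background, 4522, 3589 and 4894 were called lower on these scalings. With level and span removed the median of the list was -0.67 and Ndufs1 differed by 0.07 (adjusted p = 0.415). Ndufb8, a subunit of complex I, was at 5.78, 5.94 and 5.83 in anti-CD27 and at 6.70, 6.80 and 7.04 in anti-PD-1/L1, a difference of -0.99 ± 0.09 (SE, adjusted p = 2.57e-05). Cox4i1, of cytochrome oxidase, differed by -0.94 and Ndufv1 by -0.87, and outside the list Atp5e, of ATP synthase, by -1.42 and Chchd1, of the mitochondrial ribosome, by -1.45. For these 5 genes the combination mice averaged closer to anti-CD27 than to anti-PD-1/L1, whereas the mean level of the whole list was 7.06 to 7.15 on the combination arrays, 6.87 to 6.94 on the anti-CD27 arrays and 7.05 to 7.24 on the anti-PD-1/L1 arrays.

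Of 14 cytosolic ribosomal proteins measured, 9 were called and kept lower and 2 (Rpl4 and Rpl6) higher. Of protein-coding genes above background, 39.7% were called lower and 25% kept lower. Rps14 differed by -0.92 and Rplp0 by -0.57, the latter kept by the strict rule. Rpl4 turned to -0.21 when level and span were removed. The medians of the respiratory and ribosomal lists were -0.14 and -0.25 on the deposited values, at or above the -0.26 of all genes, and -0.41 and -0.41 after cyclic loess. These genes are short, with median spans of 7296 and 4151.5 bases. Of glycolytic genes 5 of 16 were called higher, among them Slc2a3 (GLUT3, 1.34) and Pkm (1.22), and 1 lower, a share higher that is below the 35.1% of protein-coding genes above background. With level and span removed 4 were higher and 8 lower, and the median of the list was 0.15 on deposited values, -0.06 after cyclic loess and -0.19 on that scaling.

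**Figure D4:**
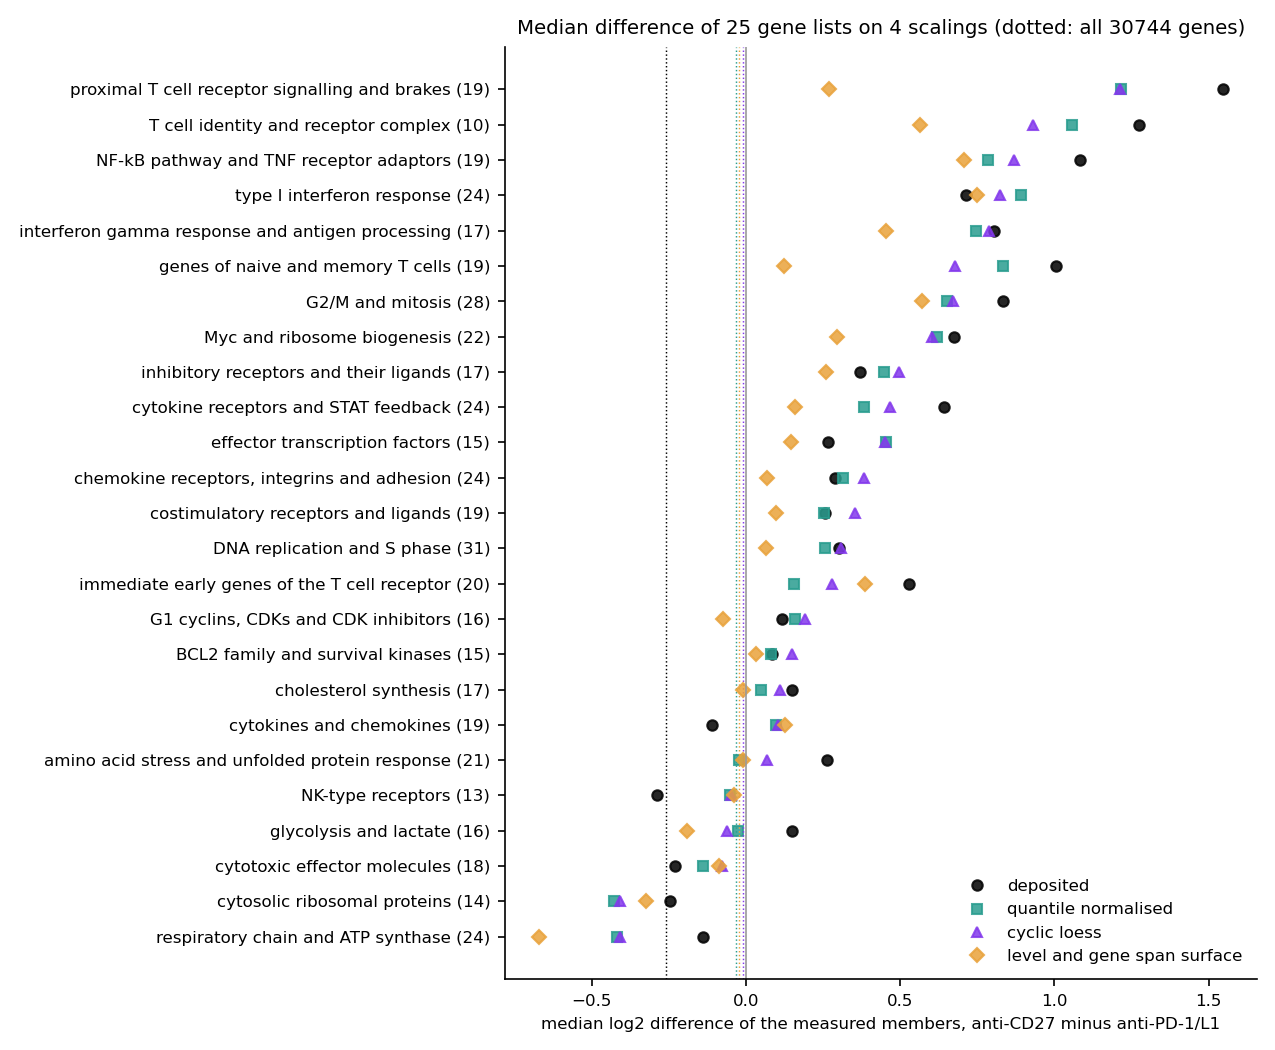
Median log2 difference (anti-CD27 minus anti-PD-1/L1) of the measured members (number in brackets) of 25 gene lists on 4 scalings, with dotted lines at the median of the 30744 genes. Lists of T cell receptor signalling, NF-kB and interferon genes lie to the right on each scaling, the respiratory and ribosomal lists to the left of 0, and the surface over level and span draws T cell receptor signalling and the naive and memory genes towards 0.

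The extremes of the comparison showed how far length went with the direction. The 12 largest rises among genes kept by the strict rule were Cbl, Rnf213 (4.06), Actn1, Gbp7, Eif3a (3.72), Iqgap1 (3.62), Prpf8 (3.61), Prrc2c (3.51), Eif3c (3.48), Crebbp (3.47), Sptbn1 (3.45) and Cyfip2 (3.44). They include a large ubiquitin ligase, subunits of the translation factor eIF3, a core splicing protein, a histone acetyltransferase and proteins of the actin cytoskeleton. Their median genomic span was 92081.5 bases, and their lowest difference with level and span removed was 2.01, for Cyfip2. Of the 12 largest falls 10 were 5S ribosomal RNA genes, and the others were Ctla2a and Rnu2-10, a U2 spliceosomal RNA (7.57 against 9.80).

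Of 70 5S ribosomal RNA genes, whose probe sets held 38 distinct sets of values, each was called lower in anti-CD27, with a median difference of -1.90. The 387 small nuclear RNAs above the background mean had a median difference of -1.40 and the 62 ribosomal RNAs of -2.03, against -0.03 for 12132 protein-coding genes. Short RNAs thus stood higher, and long genes lower, on the anti-PD-1/L1 arrays. The 5S genes had a median of 5.07 in both anti-CD27 and the combination against 7.35. The 12 protein-coding genes with the largest falls had a median span of 3263 bases, and among them Gzmb, Gzma, Gzmk, Ctla2a, Ctla2b, Cxcr6 and Rnase2a had differences between -2.58 and -1.34 with level and span removed.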

How the data were processed

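RNA of sorted CD8+ T cells was measured on 9 Affymetrix whole-transcript arrays, 1 for each mouse, of which 6 are compared. The authors deposited log2 RMA values (background correction, normalisation and summary per probe set), made with the R package oligo 1.38.0 per the submitters' processing notes. The genome build of the probes is not given in the sources used here. Of 72688 probe sets, 6732 are controls and 65956 transcript probe sets, of which 31217 name 1 gene, 1533 several and 33206 none in the platform annotation; 827 symbols were updated through the RefSeq gene table (GRCm38.p6). For genes with several probe sets the one with the highest mean was used, which gave 30744 genes.

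Differences were fitted with limma 3.58.1 in R 4.3.3, with 1 mean per group over the 9 arrays (6 residual degrees of freedom), empirical Bayes moderation, a two-sided test and Benjamini-Hochberg adjustment, with no filter on low values. No count or depth exists for arrays, and the number of arrays limits the precision. The fitting code was tested on simulated data. Quantile normalisation and cyclic loess were refitted in the same way. Gene span is the length from start to end of the gene in the RefSeq table. Genes were named by rule: the 12 largest positive and negative differences among genes kept by the strict rule, the 8 most negative of those in the upper 25% of level, up to 4 called members of each list by size, and 18 fixed genes; the text takes its names from these, from the 12 largest protein-coding falls, and from members added after their values were seen (Gzmm, Bad, Socs1, Socs3, Id3, Psmb8, Traf1, Ifi27, Cd3d, Ndufs1, Gzmc, Gzmf, Gzmg, Fasl, Serpinb6b). The rule for positive differences in the lower 50% of level found 0 genes. The groups, gene lists and rules were chosen with earlier results of these data known.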

Additional observations from a re-analysis of the deposited data

How the results depend on the processing

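The number of genes called lower in anti-CD27 depended on the scaling: 16485 on the deposited values, 8284 after quantile normalisation, 7240 after cyclic loess and 8011 after removal of the surface over level and gene span, and 6359 when the lower 50% of genes by mean level were left out. With a minimum of 1.5-fold (limma treat) 2119 genes were called higher and 1276 lower, and 772 and 321 of them were kept by the strict rule. Of the 122 named genes 31 lost their call in this test. Among them were Gzmk (adjusted p = 0.0876), Gzmm (0.0794), Klrd1 (0.220), Klrg1 (0.628), Ifng (0.134), Ccl5 (0.150) and Btla (0.0758). Bad (0.156), Socs3 (0.939), Socs1 and Id3 also belonged to them. With the mean of the background controls as the background, 4126 were kept higher and 4880 lower, and with the 95th percentile of the negative controls 2773 and 1879. Leaving out 1 array at a time gave 4729 to 5813 called higher, 14327 to 16428 called lower, 1321 to 1417 kept higher and 666 to 751 kept lower.

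With the replicate number as a block, 5142 genes were called higher and 15985 lower, and the block changed no call of the genes named. The numbers are not stated to pair the mice, and the deviations of same-numbered arrays from their group means correlated at -0.08, -0.10 and -0.20, so the main results carry no pairing.

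Of 122 named genes, the difference turned sign for Il12rb2 (0.23 after quantile normalisation, 0.13 after cyclic loess), Il2ra (0.25, 0.26 and 0.16 with the surface), Rpl4 (-0.21 with the surface), Tbx21 (-0.41, -0.31 and -0.67, and from -0.055 to 0.067 when 1 array was left out), Fasl (0.028, 0.034 and 0.045) and Ncr1 (0.11, 0.089 and 0.10). The cause was not tested.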

Other observations

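Other gene lists showed mixed directions. Of 19 costimulatory receptors and ligands 10 were called higher in anti-CD27 and 2 lower, of 15 effector transcription factors 8 and 4, of 15 genes of the BCL2 family and survival kinases 7 and 4, and of 16 G1 cyclins, CDKs and CDK inhibitors 7 and 4. With level and span removed these lists had 7 higher and 4 lower, 6 and 5, 4 and 7, and 5 and 6. Of 21 genes of amino acid stress and the unfolded protein response 10 were called higher and 6 lower, and 6 and 6 with level and span removed. Of 17 cholesterol synthesis genes 4 were called higher and 3 lower, with a median difference of 0.15 on the deposited values and 0.05 after quantile normalisation, where 4 were higher and 6 lower.

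Among markers of cells other than those sorted, 0 of 7 dendritic cell, 0 of 2 CD4 T cell, 0 of 3 erythroid and 0 of 5 platelet markers were called higher in anti-CD27, and 3, 1, 3 and 5 of them were called lower, beside 53.6% of all genes. After quantile normalisation 2, 1, 0 and 0 were called higher and 0, 1, 1 and 3 lower.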
